A study of Mus musculus with 36 samples.

Results

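The microRNAs (miRNAs) of the miR-34 family and their relative miR-449a were followed through 7 mature miRNAs, mmu-miR-34a-5p, mmu-miR-34a-3p, mmu-miR-34b-5p, mmu-miR-34b-3p, mmu-miR-34c-5p, mmu-miR-34c-3p and mmu-miR-449a-5p. They were taken by name from the 1915 mature miRNAs of the count table. The libraries came from whole kidneys of newborn C57BL/6 mice of 2 models of autosomal dominant polycystic kidney disease. Kidneys were taken on post natal day 1, 3 or 7, here called P1, P3 and P7. In the Pkd1 model the knockouts (KO) were Pkd1f/f:HoxB7-Cre and the controls, here called WT, were Pkd1f/f. In the Pkd2 model the KO were Pkd2f/f:HoxB7-Cre and the WT were Pkd2f/f. WT kidneys thus carried the same floxed alleles as KO kidneys and lacked only the Cre transgene, which the HoxB7 promoter drives in the collecting duct while the other kidney cells keep the gene. Each of the 12 groups held 3 libraries, 36 in all. The total of mature miRNA reads was 12569939 to 32663566 per library, with a median of 24008082. Controls were age-matched littermates by the study's methods, but nothing ties a library to a litter, so p-values measure the spread between these libraries, which may be technical. Pkd1 and Pkd2 are mRNAs and were not measured by this assay, so the genotype labels were not checked.

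miR-34a, miR-34b and miR-34c are known as direct transcriptional targets of the tumour suppressor p53, and they repress messages for cyclins, cyclin-dependent kinases, MET and BCL2, among others. miR-449a is known as a target of E2F and from multiciliated cells, and it represses many of the same messages because its 5′ end is alike. A miRNA finds its targets mainly through its seed, bases 2 to 8 from the 5′ end, and each hairpin can release a 5p and a 3p arm, of which one usually prevails.

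The mature sequences are given here because a shared seed is what makes miR-34 and miR-449 relatives, and because the 3p arms fall into other seed groups. The sequences are those of RefSeq for GRCm38.p6, where 6 of the 7 members matched by name, all but miR-34c-5p, and the seed is in capitals. GGCAGUG was the seed of the 5p arms printed here and, of 1679 mature names in the RefSeq table, of 4 in all, the fourth being miR-449c-5p. miR-34c-5p and miR-449b had no mature entry there, so this count leaves them out and their seeds were not checked.
miR-34a-5p: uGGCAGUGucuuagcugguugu
miR-34b-5p: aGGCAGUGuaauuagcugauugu
miR-449a-5p: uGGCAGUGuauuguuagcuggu
miR-449c-5p: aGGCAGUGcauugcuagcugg
The 3p arms of miR-34b and miR-34c shared the seed AUCACUA with no other name of the table, and that of miR-34a, AUCAGCA, was shared with none.
miR-34a-3p: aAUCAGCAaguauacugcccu
miR-34b-3p: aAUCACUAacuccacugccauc
miR-34c-3p: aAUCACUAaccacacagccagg
Outside the seed the members differed. Counted from the 5′ end, miR-34a-5p and miR-449a-5p had the same base at 15 of 22 positions, miR-34b-3p and miR-34c-3p at 17 of 22, and miR-449a-5p and miR-449c-5p at 18 of 21. These counts leave out miR-34c-5p, whose sequence was not matched, so its likeness to miR-34b-5p was not counted. How the counting divided reads between like sequences is not given in the sources used here, so any such split is uncertain.

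The members come from 3 places in the genome (GRCm38.p6). Mir34a lies alone on the forward strand at chr4:150068454-150068555, within an exon of Gm37795, an uncharacterised gene on the same strand. Mir34b and Mir34c lie 451 bases apart on the reverse strand, at chr9:51103562-51103645 and chr9:51103034-51103110, opposite an intron of Btg4, a gene of the BTG antiproliferative family. Mir449a (chr13:113037534-113037624) and Mir449c (chr13:113035983-113036091) lie 1442 bases apart on the forward strand in introns of Cdc20b, a gene of the same strand.

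The 7 members were measured at very different depths. Levels are in CPM, the reads of a miRNA per 1e+06 reads of its library, after scaling the 36 libraries by the trimmed mean of M values (TMM). The mature forms matched by name were 21 to 23 bases long, and the length of miR-34c-5p was not checked. CPM of different members were set side by side without a length correction. How well the adaptors joined each sequence was not corrected. miR-34c-5p was the most abundant member, at 114 to 516 CPM (median 214), and ranked 111 of 1915 by its mean level. miR-34a-5p followed at 27.2 to 183 CPM, with a median of 41.1. miR-34b-5p reached 6.07 to 38.4 CPM (median 13.4). The other arms were scarcer, with miR-34b-3p at 2.05 to 5.27 CPM, miR-34c-3p at 1.47 to 5.66 CPM and miR-449a-5p at 1.57 to 7.24 CPM. These 6 members had at least 10 reads in every library, the fewest being those of miR-449a-5p.

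miR-34a-3p was the member near the detection floor. Taking 3 reads as the floor, which is 0.0593 to 0.471 CPM depending on the library, miR-34a-3p had 1 to 31 reads (0.114 to 1.18 CPM) and was at or under the floor in 8 of the 36 libraries, although in none at 0. Of the miR-449 rows that are not members, miR-449c-5p was measurable, with 17 to 102 reads, while miR-449a-3p was at or under 3 reads in 35 of 36 libraries and miR-449b and miR-449c-3p never exceeded 1 read. Nothing can be said of the changes of these last 3 at this depth, and the floor covers counting error only.

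**Figure D1:**
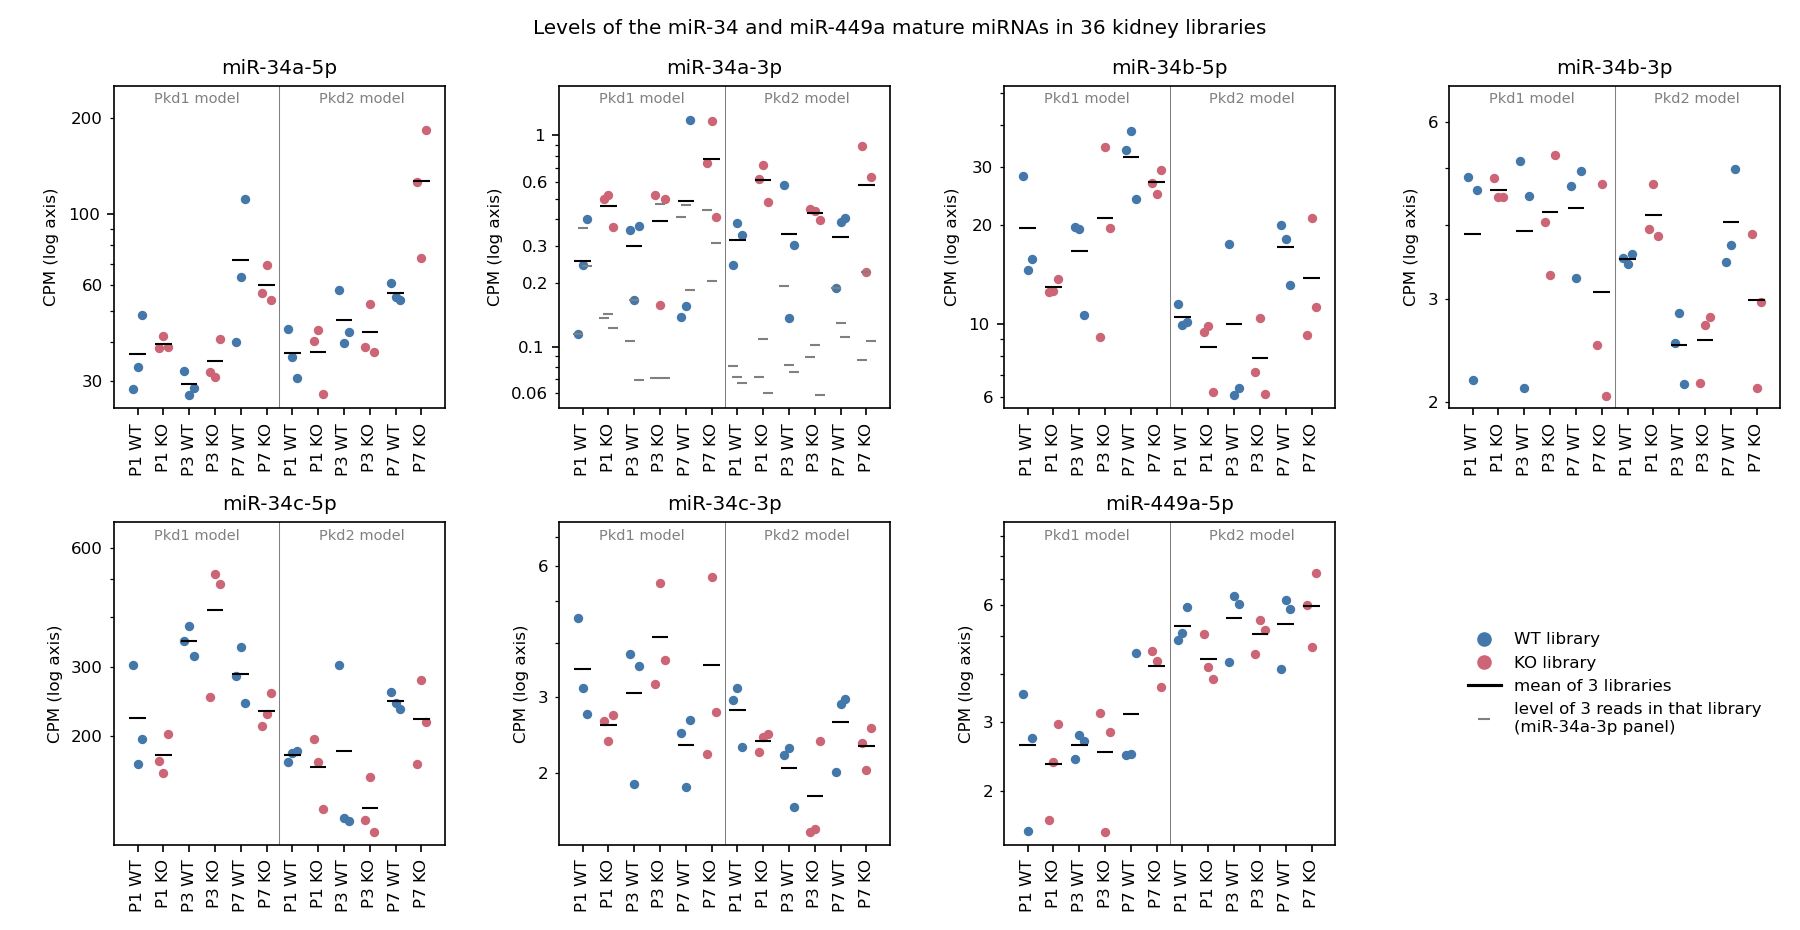
Level of each member in every library, in CPM on a log axis, for WT (blue) and KO (red) kidneys at P1, P3 and P7 of each model, with black bars at the mean of 3 libraries and grey ticks at 3 reads in the miR-34a-3p panel. miR-34a-5p reaches 183 CPM in a Pkd2 KO library at P7, miR-449a-5p is mostly higher in the Pkd2 model, and miR-34a-3p lies close to the ticks.

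The arms of a hairpin are counted in the same library, so their ratio needs no scaling. The ratio can still differ with other features of a library. miR-34a gave 98.3 to 99.8% of its reads from the 5p arm and miR-34c 97.6 to 99.5%. miR-449a gave 96.2 to 100%. miR-34b was the hairpin whose 3p arm was a sizeable part, with 61.8 to 93.5% of reads from the 5p arm, or 1.62 to 14.4 reads of 5p for each of 3p. The 5p share of miR-34b was 66.7% ± 4.47 (SD, n = 3) in Pkd2 KO kidneys at P1, the lowest group mean, and 89.6% ± 4.99 (SD, n = 3) in Pkd1 KO kidneys at P7, the highest. Within 1 group it could also vary widely, as in the Pkd1 KO libraries at P3. There the ratio ran from 2.25, in a library with a TMM factor of 1.776, to 10.4, at a factor of 0.507. The 5p share of miR-34b tended to be lower where the factor was higher. The factors were 1.578 to 2.412 in the group with the lowest mean and 0.466 to 0.604 in that with the highest. A difference in arm use between these groups therefore cannot be told apart from this feature of the libraries.

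Together miR-34a-5p, miR-34b-5p, miR-34c-5p, miR-449a-5p and miR-449c-5p took 0.0141 to 0.0867% of all mature miRNA reads. miR-34c-5p made up 51.5 to 88.2% of these reads (median 75.4%) and miR-34a-5p 5.28 to 43.5% (median 16.97%). miR-34b-5p, from the same locus as miR-34c-5p, gave 2.67 to 9.34%. miR-449a-5p gave 0.267 to 3.57% and miR-449c-5p 0.280 to 1.45%.

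**Figure D2:**
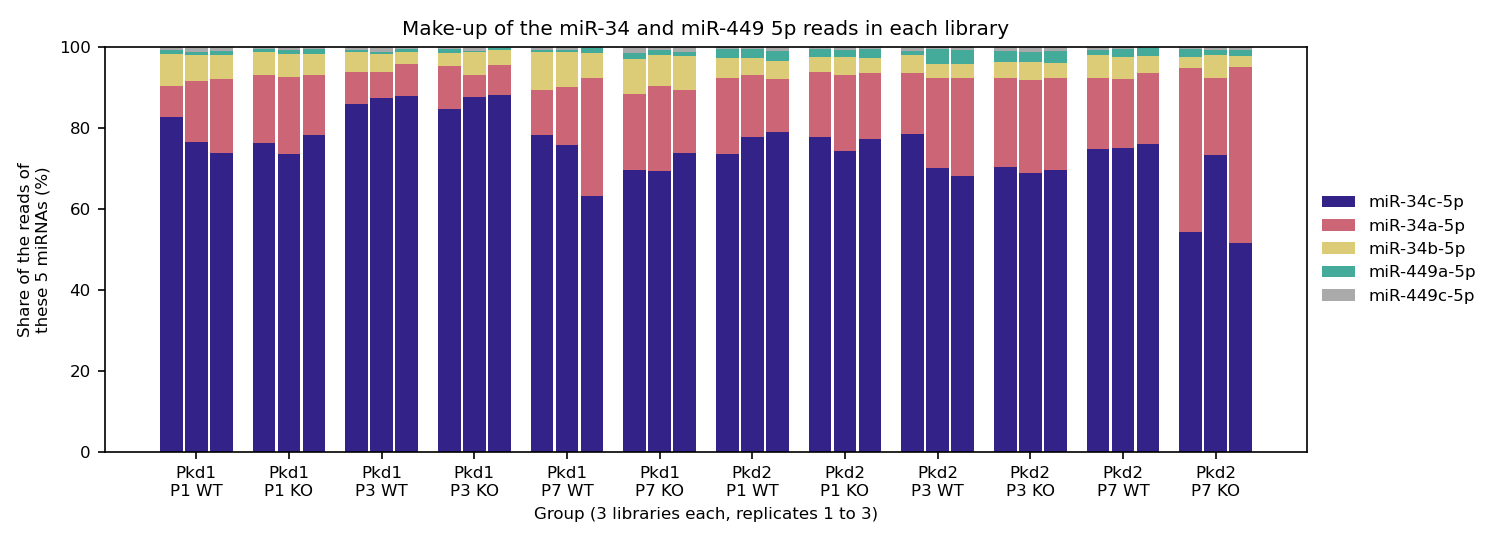
Share of each miRNA, in percent, in the summed reads of miR-34a-5p, miR-34b-5p, miR-34c-5p, miR-449a-5p and miR-449c-5p, 1 bar for each of the 36 libraries. miR-34c-5p is the largest part of every bar, and the share of miR-34a-5p is 40.4 and 43.5% in replicates 1 and 3 of the Pkd2 KO group at P7.

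Some features of the libraries bear on these levels. The TMM factors ran from 0.395 to 2.412, a wide range, and some members moved with them inside groups of like kidneys. In 9 of the 12 groups the library with the lowest factor had the highest CPM of miR-34b-5p, and in 8 the highest of miR-34c-5p. For miR-34a-5p this held in 5 groups, for miR-449a-5p in 4, and for the 3p arms in 1 or 2. The library with the lowest factor instead had the lowest CPM of miR-34a-3p, miR-34b-3p and miR-449a-5p in 6 groups each. For miR-34c-3p that was so in 5 groups, for miR-34a-5p and miR-34c-5p in 3 and for miR-34b-5p in 1. CPM is divided by the factor, so these counts depend on the scaling. With library totals in place of TMM, that library had the lowest level of miR-34b-3p and miR-449a-5p in 10 groups. It had the lowest of miR-34c-5p in 9, of miR-34c-3p in 8, of both arms of miR-34a in 7 and of miR-34b-5p in 5. All 4 kidney tubule miRNAs used as markers (miR-192-5p, miR-194-5p, miR-204-5p and miR-10a-5p) were above the floor in every library. The summed level of 7 miRNAs of other organs (liver, muscle, endocrine, gonad, nervous tissue) was 1963 CPM in replicate 1 of Pkd1 WT at P1 and at most 598 CPM elsewhere. miR-206-3p, miR-202-5p and miR-124-3p of this list were at 0 in 5, 10 and 5 libraries. In that replicate 1 the members of the miR-34b and miR-34c locus and miR-449a-5p were at the highest level of their group and both arms of miR-34a at the lowest. Changes of members printed with an SE that use Pkd1 WT kidneys at P1 are therefore also given without it, alone or within a range. Counts of groups that did not overlap and values of other miRNAs are given only with it. The part of RNA from other organs in these results was not tested.

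**Figure D3:**
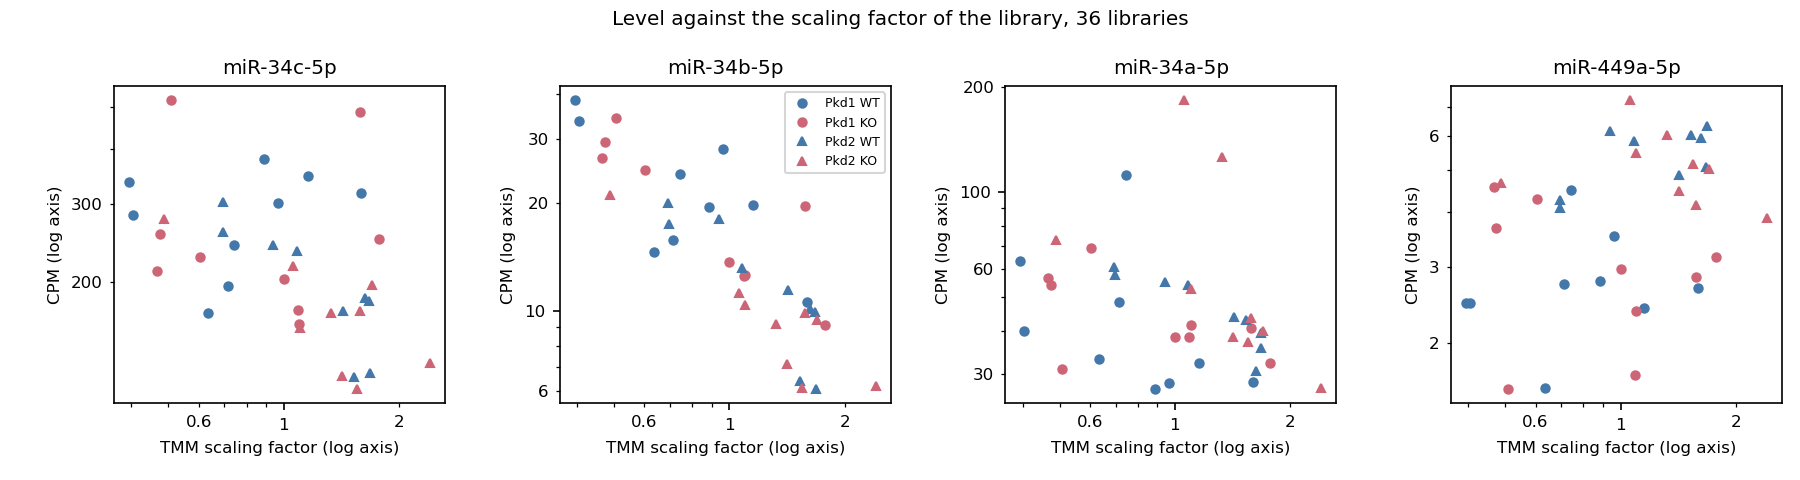
Level in CPM against the TMM factor of the library (both log axes) for the 4 members that are 5p arms, with circles for the Pkd1 model, triangles for the Pkd2 model, blue for WT and red for KO. The CPM is itself divided by this factor. miR-34b-5p falls from 38.4 CPM at the lowest factor to between 6 and 7 CPM at the highest. miR-34a-5p has its 2 highest values at factors of 1.059 and 1.326.

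Whether loss of Pkd1 or Pkd2 in the collecting duct changed the members was tested at each age with edgeR's quasi-likelihood test on the counts, adjusted by Benjamini-Hochberg over all miRNAs tested, 706 for Pkd1 and 746 for Pkd2. All 7 members passed the filter of 10 counts in 3 libraries. One member was called, that is, had an adjusted p under 0.05: miR-34a-5p was higher in Pkd2 KO kidneys at P7. In that comparison 12.6% of all miRNAs were called, so 1 of 7 members is about the share of the background. No member was called in the Pkd1 model at P1 (0% of all miRNAs), P3 (0%) or P7 (0.425%), or in the Pkd2 model at P1 (0%) or P3 (0%). With an unadjusted p under 0.05, edgeR gave 0 members in the Pkd1 model at P1, P3 and P7, beside 8.36, 9.07 and 10.2% of all miRNAs. For Pkd2 it gave 1 at P1, miR-34a-3p, beside 5.5%, and 0 at P3, beside 1.47%. DESeq2 called 0 members in the same 5 comparisons and 1, miR-34a-5p, in Pkd2 KO kidneys at P7.

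In Pkd2 kidneys at P7, miR-34a-5p stood at 61.0, 55.1 and 53.9 CPM in the WT libraries and at 126, 72.8 and 183 CPM in the KO libraries, replicates 1 to 3. All KO libraries lay above all WT libraries, and KO replicates 1 and 3 lay well above replicate 2. The log2 fold change was 1.23 (SE 0.27, edgeR adjusted p = 0.0147), the mean level being 127 ± 55.2 (SD, n = 3) CPM in KO. The call rested on few libraries. Without KO replicate 3 the change was 0.86 and the adjusted p 0.0908, without WT replicate 2 it was 1.14 with 0.0657, and without WT replicate 3 it was 1.16 with 0.0558. With library totals in place of TMM the change was 1.38 and no longer called (adjusted p = 0.102), and in a fit of these 6 libraries alone it was 1.29 (adjusted p = 0.0604). In whole kidney RNA, more cells of a type and more RNA per cell cannot be told apart.

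The same reads of miR-34a-5p were also set against those of its relatives. This share needs no scaling, but it is not independent of the levels above. Among reads of the 5p members and miR-449c-5p, miR-34a-5p made up 17.6, 17.05 and 17.5% in the Pkd2 WT libraries at P7. Its share was 40.4, 19.2 and 43.5% in the KO libraries. The groups did not overlap, and KO replicate 2 again lay nearest the WT libraries. Most of the other reads in the KO libraries were miR-34c-5p, at 170, 277 and 217 CPM. The TMM factors of these libraries were 1.326, 0.488 and 1.059, and the CPM of miR-34c-5p, which is divided by the factor, tended to move with it inside groups. The part of this in the share was not tested, and no test was made of the share itself.

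The 5 miRNAs nearest to the arms of miR-34a over the 36 libraries, described further on, were also read at P7. They were picked for a like pattern within groups, so a like order of the replicates follows from that choice. In the Pkd2 model 4 of the 5 were called higher in KO, where 12.6% of all miRNAs were called in either direction. At P7 miR-31-5p was at 43.3, 33.2 and 35.1 CPM in Pkd2 WT and at 177, 105 and 273 CPM in Pkd2 KO (log2 fold change 2.37, SE 0.32, edgeR adjusted p = 0.00112). miR-205-5p, a miRNA known from stratified and transitional epithelia, was at 111, 51.9 and 57.3 CPM in WT and 530, 106 and 920 CPM in KO, overlapping by 1 library. miR-141-3p, of the epithelial miR-200 family, was at 426, 531 and 532 CPM in WT and 1062, 641 and 809 CPM in KO. miR-3059-5p, a scarce miRNA, was at 0.694, 0.129 and 0.148 CPM in WT and 3.64, 1.06 and 6.50 CPM in KO. miR-203-3p did not pass the test (log2 fold change 0.14, edgeR adjusted p = 0.725). It was at 241, 308 and 303 CPM in WT and 394, 203 and 296 CPM in KO. In Pkd1 kidneys at P7 the log2 fold changes were 0.72 for miR-31-5p, 0.22 for miR-141-3p and -0.26 for miR-203-3p. They were -1.64 for miR-205-5p, with all KO libraries below all WT libraries, and -2.69 for miR-3059-5p. The edgeR adjusted p of these 5 changes was 0.160 to 0.941. Of 5 blood cell miRNAs none was called at P7 in Pkd2 kidneys, although all 5 had a change above 0. Their summed level was 2295 to 2742 CPM in WT and 3573 to 5655 CPM in KO. Of the 7 miRNAs of other organs 6 were tested, and all 6 had a change above 0 with none called. The 7 summed to 81.9 to 123 CPM in WT and 133 to 186 CPM in KO. Of the 4 tubule miRNAs 3 were called lower, beside the same 12.6% of all miRNAs, and 1 had a change above 0 and was not called. The summed level of the 4 was 234478 to 480716 CPM in WT and 165407 to 642595 CPM in KO, which overlapped. The part of these in the miR-34a-5p result was not tested.

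**Figure D4:**
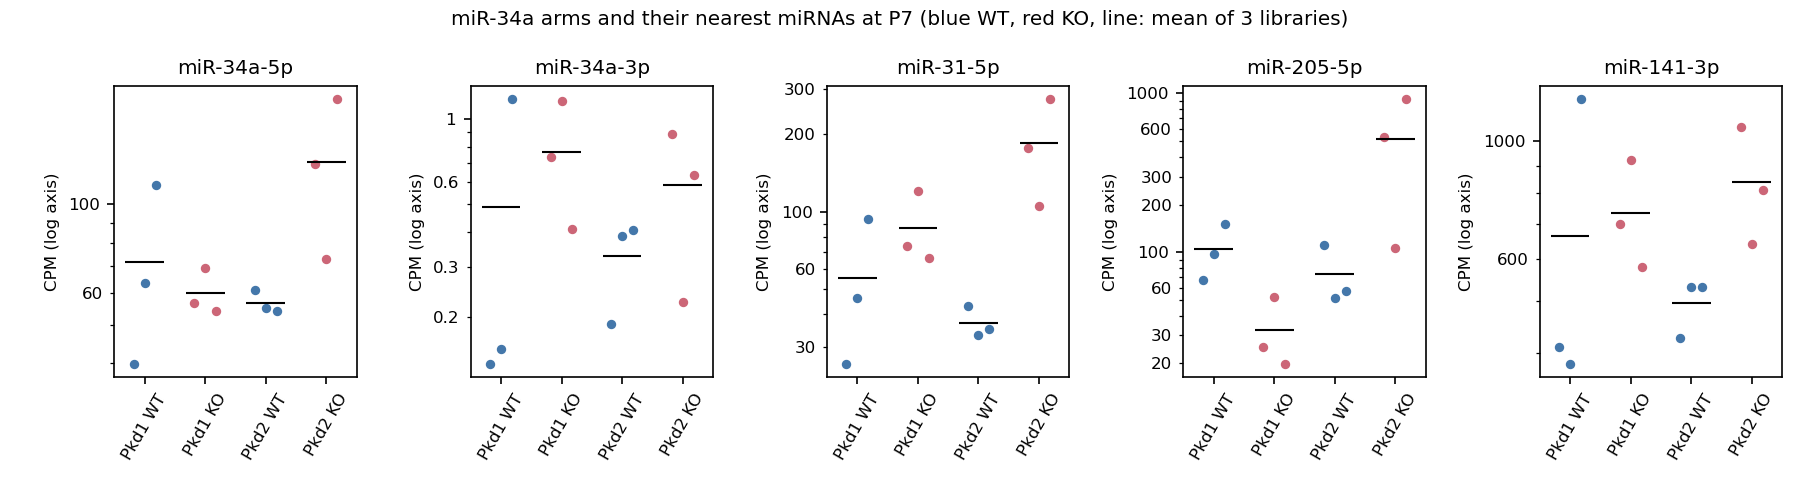
Levels at P7, in CPM on log axes, of the 2 arms of miR-34a and of miR-31-5p, miR-205-5p and miR-141-3p in the 3 WT (blue) and 3 KO (red) libraries of each model, with bars at the means. In the Pkd2 model the KO points of miR-34a-5p (72.8 to 183 CPM) lie above its WT points (53.9 to 61.0 CPM). In the Pkd1 model the WT and KO points of miR-34a-5p mix.

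In Pkd1 kidneys at P7, miR-34a-5p was at 40.0, 63.5 and 112 CPM in WT and at 56.6, 69.3 and 54.0 CPM in KO. The groups overlapped, and WT replicate 3 was the highest of the 6. The log2 fold change was -0.18 (SE 0.28, adjusted p = 0.914), and it became 0.20 without WT replicate 3. At P1 and P3 the change of miR-34a-5p lay between -0.16 and 0.26 in the 2 models. In Pkd2 kidneys at P1, for example, its levels were 43.8, 35.7 and 30.7 CPM in WT and 40.0, 43.6 and 27.4 CPM in KO, which overlapped.

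miR-34a-3p, the scarce arm of the same hairpin, had a change above 0 in all 6 KO comparisons, from 0.46 to 1.03, with none called. In Pkd2 kidneys at P1 its levels were 0.242, 0.382 and 0.335 CPM in WT, from 9, 16 and 15 reads, and 0.621, 0.724 and 0.484 CPM in KO, from 26, 20 and 24 reads. These groups did not overlap (log2 fold change 0.95, SE 0.42, edgeR adjusted p = 0.886). At P7 in the Pkd2 model the levels were 0.189, 0.388 and 0.407 CPM in WT and 0.888, 0.226 and 0.636 CPM in KO. Here KO replicate 2, with 3 reads, fell among the WT libraries, and the change was 0.94 (SE 0.46, adjusted p = 0.191), or 0.53 without KO replicate 1. Counts this low limit the precision, since 1 read more or less moves such a level by a large part.

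miR-34b and miR-34c are read from the same locus, and none of their 4 arms was called in KO kidneys at any age. miR-34b-5p in Pkd1 kidneys at P1 was at 28.2, 14.5 and 15.7 CPM in WT and at 12.5, 12.5 and 13.7 CPM in KO. All KO libraries lay below all WT libraries, but the change of -0.54 (SE 0.38, adjusted p = 0.637) was -0.19 without WT replicate 1, the library with miRNAs of other organs. miR-34c-5p, the most abundant member, had KO changes from -0.51 to 0.26. In Pkd2 kidneys at P7 it stood at 259, 242 and 234 CPM in WT and 170, 277 and 217 CPM in KO, with overlap.

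miR-449a-5p changed by -0.23 to 0.46 in the KO comparisons. At P7 it was at 2.47, 2.48 and 4.52 CPM in Pkd1 WT and at 4.57, 4.29 and 3.68 CPM in Pkd1 KO, overlapping because of WT replicate 3 (log2 fold change 0.46, SE 0.34, adjusted p = 0.744), and the change was 0.74 without that library. In the Pkd2 model at P7 it was at 4.10, 6.17 and 5.84 CPM in WT and 6.01, 4.67 and 7.24 CPM in KO, which also overlapped (0.23, SE 0.21, adjusted p = 0.522). Leaving out WT replicate 1 gave 0.06, and leaving out KO replicate 3 gave 0.05. Its neighbour miR-449c-5p was called in none of the 6 KO comparisons either.

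**Figure D5:**
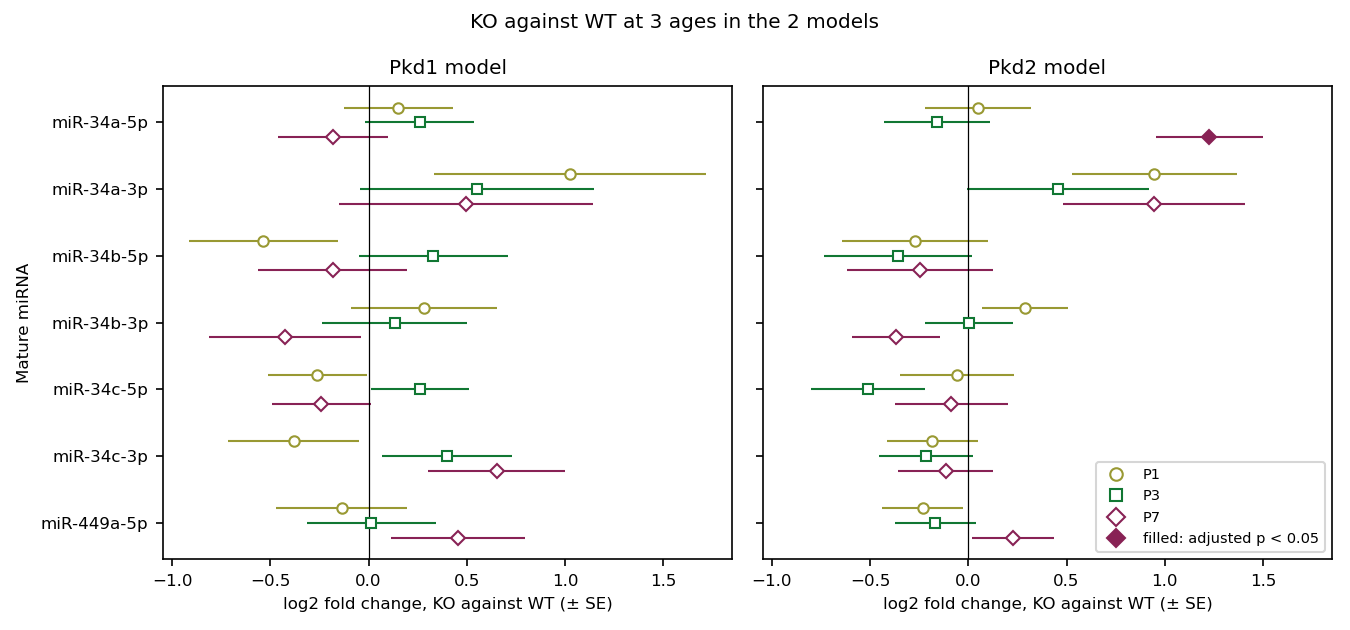
Log2 fold change of KO against WT, with its SE, for each member at P1 (circles), P3 (squares) and P7 (diamonds) in the 2 models, filled where the adjusted p was under 0.05. The single filled point is miR-34a-5p in the Pkd2 model at P7, at 1.23.

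Counting how many members had groups that did not overlap gave 2 of 7 in Pkd1 kidneys at P1 (miR-34b-5p and miR-34c-3p, both lower), beside 18.1% of all miRNAs. It gave 0 at P3 (12.3%) and 0 at P7 (16.4%). In Pkd2 kidneys it gave 3 of 7 at P1, beside 13.4%, with miR-34a-3p and miR-34b-3p higher and miR-34b-5p lower. It gave 0 at P3 (4.42%) and 1 at P7 (25.6%). The median change of the 7 members was between -0.18 and 0.26 in these 6 comparisons, while the median of all miRNAs was between -0.05 and 0.03.

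Averaged over the ages, no member was called in either model, beside 0.425% of all miRNAs for Pkd1 and 0.402% for Pkd2. At an unadjusted p under 0.05 edgeR gave 0 members in the Pkd1 model (5.38% of all) and 2 in the Pkd2 model (20.5%), the 2 arms of miR-34a, and DESeq2 called 0 in both models. The average change in Pkd2 kidneys was 0.37 for miR-34a-5p (SE 0.16, adjusted p = 0.202) and 0.78 for miR-34a-3p (SE 0.26, adjusted p = 0.129). miR-34a-3p became called without P7 KO replicate 2 (0.88, adjusted p = 0.0438) or P3 WT replicate 1 (0.94, adjusted p = 0.046). In the Pkd1 model it changed by 0.69 on average (SE 0.37, adjusted p = 0.829), by 0.51 without WT replicate 1 of P1 and by 1.26 without WT replicate 3 of P7.

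The change of the KO effect from P1 to P7 asked whether the KO difference itself moved with age. No member was called, beside 0.142% of all miRNAs for Pkd1 and 0.536% for Pkd2. At an unadjusted p under 0.05 edgeR gave 1 member in each, beside 12% in the Pkd1 and 16.9% in the Pkd2 model, and DESeq2 called 0. For Pkd2 this was miR-34a-5p, whose KO effect at P7 exceeded that at P1 by 1.18 on the log2 scale (SE 0.38, edgeR adjusted p = 0.15), and it was called without P7 KO replicate 2 (1.40, adjusted p = 0.035) and was 0.79 without P7 KO replicate 3. In the Pkd1 model it was miR-34c-3p (1.03, SE 0.48, edgeR adjusted p = 0.407), with 12 to 120 reads in those libraries, and it was 0.80 without WT replicate 1 of P1 and 0.60 without KO replicate 2 of P7.

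A direct comparison of the models used all 36 libraries and 775 miRNAs. No member's KO effect was called different between the Pkd1 and Pkd2 models at P1 (0% of all miRNAs), P3 (0%) or P7 (0.387%). With an unadjusted p under 0.05 edgeR gave 0 members at P1 (6.32% of all), 0 at P3 (5.03%) and 1 at P7 (12%), and DESeq2 called 0 at each age. That member was miR-34a-5p, for which the Pkd1 effect minus the Pkd2 effect at P7 was -1.43 (SE 0.41, edgeR adjusted p = 0.204). It was called without Pkd1 WT replicate 1 (-1.72, adjusted p = 0.0429) or without Pkd2 KO replicate 2 (-1.71, adjusted p = 0.0288), and it was -0.96 without Pkd1 WT replicate 3. The rise of miR-34a-5p in the Pkd2 model is therefore not shown to differ from its change in the Pkd1 model.

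Growth of the WT kidney was the comparison in which miR-34a-5p moved in the Pkd1 model. From P1 to P7, 1 of 7 members was called in Pkd1 WT kidneys, beside 21.5% of all miRNAs, and 0 of 7 in Pkd2 WT kidneys, beside 28.3%. For Pkd2, 0 members had an unadjusted p under 0.05 with edgeR (39.8% of all), and DESeq2 called 0. miR-34a-5p in Pkd1 WT libraries was at 28.3, 33.2 and 48.4 CPM at P1, at 32.3, 27.2 and 28.5 CPM at P3 and at 40.0, 63.5 and 112 CPM at P7. P7 replicate 1 lay below P1 replicate 3, so P1 and P7 overlapped, while all P7 libraries lay above all P3 libraries. The change from P1 to P7 was 1.03 (SE 0.28, edgeR adjusted p = 0.0213). It was 0.58 (adjusted p = 0.121) without P7 replicate 3, 0.86 (adjusted p = 0.0721) without P1 replicate 1 and 0.95 (adjusted p = 0.0572) without P1 replicate 2. A fit of these 6 libraries alone gave 1.04 (adjusted p = 0.152).

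The TMM factors of these WT libraries differed by age, being 0.634 to 0.964 at P1, 0.886 to 1.595 at P3 and 0.395 to 0.743 at P7. With library totals in place of TMM, the median change of all miRNAs from P1 to P7 moved by -0.65 and that of miR-34a-5p was 0.59 (adjusted p = 0.504). Relative to the median of all miRNAs miR-34a-5p was higher at P7 by 1.06 with TMM and by 1.26 with library totals. In Pkd2 WT kidneys miR-34a-5p was at 43.8, 35.7 and 30.7 CPM at P1 and 61.0, 55.1 and 53.9 CPM at P7. These did not overlap, but the change of 0.55 (SE 0.27, adjusted p = 0.139) was not called, and it turned to -0.17 with library totals, under which the median of all miRNAs moved by -0.73.

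Groups that did not overlap between P1 and P7 were found for 1 of 7 members in Pkd1 WT kidneys, miR-34c-3p, lower at P7, beside 33.3% of all miRNAs. In Pkd2 WT kidneys they were found for 3 of 7, miR-34a-5p, miR-34b-5p and miR-34c-5p, all higher at P7, beside 50% of all. miR-34b-5p was at 11.5, 9.93 and 10.1 CPM at P1 and 19.99, 18.03 and 13.1 CPM at P7 in the latter (0.62, SE 0.37, adjusted p = 0.235). miR-34c-5p was at 172, 181 and 183 CPM at P1 and 259, 242 and 234 CPM at P7 (0.38, SE 0.29, adjusted p = 0.361). All 3 were called in a fit of these 6 libraries alone, and all 3 changes fell below 0 with library totals, at -0.17, -0.13 and -0.36 for miR-34a-5p, miR-34b-5p and miR-34c-5p.

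The steps between P1, P3 and P7 in WT kidneys were compared after the values had been seen. From P3 to P7, 1 member was called in Pkd1 WT kidneys, beside 14.4% of all miRNAs. This was miR-34a-5p (1.30, SE 0.28, edgeR adjusted p = 0.00845), which stayed called without any one of the 6 libraries, at 0.88 to 1.57. With library totals it was 0.22 (adjusted p = 0.74), the median of all miRNAs having moved by -1.26, and relative to that median it was 1.49 against 1.31 with TMM. miR-34b-5p was at 19.7, 19.4 and 10.6 CPM at P3 and 33.8, 38.4 and 23.9 CPM at P7, without overlap (0.99, SE 0.38, adjusted p = 0.0967), and turned to -0.29 with library totals.

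From P1 to P3 no member was called in Pkd1 WT kidneys (18.8% of all miRNAs), 1 had an unadjusted p under 0.05 (31.6% of all) and DESeq2 called 1. This was miR-34c-5p, at 302, 170 and 196 CPM at P1 and 348, 380 and 319 CPM at P3. The P3 libraries all lay above those of P1 (0.71, SE 0.25, edgeR adjusted p = 0.0593, DESeq2 adjusted p = 0.048). Without P1 replicate 1, the library with miRNAs of other organs, it was 0.97 and called (adjusted p = 0.0321). In Pkd2 WT kidneys no member was called from P1 to P3 (0.268% of all) or from P3 to P7 (4.16%). At an unadjusted p under 0.05 edgeR gave 0 from P1 to P3 (14.2%) and 1 from P3 to P7 (24.5%), where DESeq2 called 1, miR-34b-3p (0.59, SE 0.22, edgeR adjusted p = 0.127).

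The WT kidneys of the 2 models differed in some members, in a comparison also added after the values had been seen. Averaged over the ages, 3 of 7 members were called between Pkd2 WT and Pkd1 WT kidneys, beside 25.2% of all miRNAs. miR-449a-5p at P1 was at 4.89, 5.08 and 5.92 CPM in Pkd2 WT and 3.54, 1.58 and 2.74 CPM in Pkd1 WT. At P3 it was at 4.27, 6.32 and 6.02 CPM in Pkd2 WT and 2.41, 2.78 and 2.68 CPM in Pkd1 WT. The groups did not overlap at P1 or P3, and at P7 they did, since Pkd1 replicate 3 (4.52 CPM) lay above Pkd2 replicate 1 (4.10 CPM). The average difference, Pkd2 minus Pkd1, was 0.93 on the log2 scale (SE 0.16, edgeR adjusted p = 6.56e-05), and it was called without any one of the 18 WT libraries, at 0.85 to 1.06.

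miR-34b-5p and miR-34c-5p went the other way. miR-34b-5p had a median of 19.7 CPM over the 9 Pkd1 WT libraries and of 11.5 CPM over the 9 Pkd2 WT libraries, with ranges of 10.6 to 38.4 and 6.07 to 19.99 CPM. The difference was -0.85 (SE 0.23, adjusted p = 0.00773) with TMM and -0.27 (adjusted p = 0.192) with library totals. It was called without any one of the 18 WT libraries, at -1.07 to -0.73. miR-34c-5p had medians of 302 and 183 CPM, and its difference was -0.49 (SE 0.16, adjusted p = 0.0282) with TMM but 0.08 with library totals. It was not called without Pkd1 P1 replicate 1 (-0.40, adjusted p = 0.0833), Pkd1 P7 replicate 2, or Pkd2 P3 replicate 2 or 3, nor without the filter on low counts (-0.46, adjusted p = 0.062). Library totals moved the median of all miRNAs by 0.64 in this comparison, and relative to that median the 2 differences with library totals were -0.89 and -0.54, while that of miR-449a-5p was 0.95. The floxed allele, the colony and any processing of the 2 models in separate runs cannot be told apart here.

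Across the 12 groups the order of the mean levels was loose. For miR-34a-5p the lowest mean was 29.4 ± 2.66 (SD, n = 3) CPM in Pkd1 WT at P3 and the highest 127 ± 55.2 (SD, n = 3) CPM in Pkd2 KO at P7, followed by Pkd1 WT at P7 with 71.8 ± 36.7 (SD, n = 3) CPM. Between none of the 11 neighbouring groups of this order did the libraries separate. For miR-34c-5p the means ran from 131 ± 22.8 (SD, n = 3) CPM in Pkd2 KO at P3 to 417 ± 145 (SD, n = 3) CPM in Pkd1 KO at P3. In these Pkd1 KO libraries it was at 251, 516 and 485 CPM, replicates 1 to 3. Their summed miRNAs of other organs were at 81.5, 406 and 598 CPM, and the part of these was not tested. Of the 7 members, miR-34b-5p alone had a pair of neighbouring groups whose libraries did not overlap, 1 pair of 11.

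The members did not move as 1 set within groups. After the mean of each group was subtracted, log2 CPM over the 36 libraries gave a Spearman rho of 0.885 between miR-34b-5p and miR-34c-5p, of the same locus. It was 0.664 between the 2 arms of miR-34a. It was 0.021 between the 2 arms of miR-34c and -0.247 between those of miR-34b. These are descriptions over libraries that share their depth and TMM factor, with which the level of miR-34b-5p also moved. The sequence of miR-34c-5p was not matched, so its likeness to miR-34b-5p was not checked. Whether reads of 1 of these 2 arms were counted as the other was not checked either.

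Of 644 other miRNAs, those nearest to miR-34a-5p by this measure were miR-3059-5p (rho 0.772), miR-31-5p (0.764) and miR-205-5p (0.721). For miR-34a-3p they were miR-141-3p (0.861), miR-31-5p (0.728) and miR-203-3p (0.695). For miR-34b-5p they were let-7c-2-3p and let-7a-1-3p (both 0.906) and miR-140-5p (0.88). The 2 let-7 rows had mean levels of 76.23 and 76.25 CPM and may count the same reads, so they are not separate neighbours. The nearest to miR-34c-5p were again let-7a-1-3p and let-7c-2-3p (both 0.84) and miR-543-5p (0.809). For miR-34b-3p they were miR-676-3p (0.752), miR-652-3p (0.703) and let-7g-3p (0.698), and for miR-34c-3p miR-877-3p (0.662), let-7c-5p (0.558) and miR-5126 (0.532). For miR-449a-5p they were miR-132-5p (0.75), miR-22-3p (0.716) and miR-200a-3p (0.669). miR-31-5p was thus near both arms of miR-34a, and the let-7 3p arms near both 5p arms of the miR-34b and miR-34c locus.

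Other miRNAs that reviews tie to p53, 11 in all, formed a list, of which 10 were tested and miR-605-5p was not analysed here. In Pkd2 KO kidneys at P7, 2 of the 10 were called higher and 2 lower, where 12.6% of all miRNAs were called. The median change of the list was -0.14, beside 0.02 for all miRNAs. The higher ones were miR-141-3p (0.82) and miR-200c-3p (0.87), epithelial miRNAs of 1 cluster. The lower ones were miR-192-5p (-1.13) and miR-194-5p (-0.95), which are read together and are also the tubule markers named above. In the other 5 KO comparisons edgeR called 0 of the 10, where 0 to 0.425% of all miRNAs were called, and 1 in all had an unadjusted p under 0.05, in Pkd2 kidneys at P1. The list therefore had members called in both directions in the comparison in which miR-34a-5p was called higher.

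In growing WT kidneys from P1 to P7, 5 of 10 were called higher and 0 lower in the Pkd1 model, where 21.5% of all miRNAs were called, with a median of 1.14 beside -0.03 for all miRNAs. These were miR-192-5p (1.56), miR-194-5p (1.43), miR-141-3p (1.28), miR-143-3p (1.03) and miR-15a-5p (0.59). In the Pkd2 model 5 were also called higher and 0 lower, where 28.3% of all were called, with a median of 0.57 beside -0.06, and they were miR-192-5p (1.49), miR-194-5p (1.43), miR-141-3p (0.61), miR-107-3p (0.52) and miR-15a-5p (0.42). miR-34a-5p was thus called beside miR-192-5p and miR-194-5p in Pkd1 WT kidneys, and in Pkd2 WT kidneys its own change of 0.55 was not called.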

How the data were processed

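Small RNA from whole kidneys was sequenced in 36 libraries, 3 in each of 12 groups of model, age and genotype. The authors removed the 3′ adaptor, kept reads longer than 17 bases, aligned them to mm10 and to the mature and hairpin sequences of miRBase 21 with miRDeep2 (version not stated) and deposited raw counts per miRNA. The submitters' notes also list CASAVA 1.8.2 and HTSeq. A mature name with several rows was read from the row with the most reads. Tests on the counts used edgeR 4.0.16 (R 4.3.3) (glmQLFit and glmQLFTest, TMM, at least 10 counts in at least 3 libraries, 1 term per group, Benjamini-Hochberg adjustment, call at 0.05), with the 18 libraries of a model fitted together, or all 36 for differences between models. The test was checked on counts drawn with known changes. Levels are CPM on 1 TMM scale of 36 libraries. Log2 CPM used a prior count of 2. Alternatives were DESeq2 1.42.0, RLE factors, library totals, no filter, a replicate term, a fit of the compared libraries, and leaving out each library. The text names the members, the other miR-449 rows, the 3 nearest miRNAs of members with a median of at least 10 counts, and called miRNAs of a p53 list. Members and lists were chosen with earlier results of these data known. Replicates were distinct libraries, since no pair within a group differed by less than sampling noise. Litter, sex and batch are not given.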

Additional observations from a re-analysis of the deposited data

How the results depend on the processing

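The number of members called moved by over 1.5 times, or from or to 0, in these cases and in no other alternative. From P1 to P7 in Pkd1 WT, 1 became 0 in the fit of the compared libraries and with library totals, and 0 to 1 when leaving out single libraries. For KO against WT at P7 in the Pkd2 model, 1 became 0 in the same 2 alternatives and 0 to 1 when leaving out single libraries. From P1 to P7 in Pkd2 WT, 0 became 3 in the fit of the compared libraries. From P1 to P3 in Pkd1 WT and from P3 to P7 in Pkd2 WT, 0 became 1 with DESeq2, and leaving out single libraries gave 0 to 1 and 0 to 2. From P3 to P7 in Pkd1 WT, 1 became 2 with library totals, where miR-34c-5p (-1.55) and miR-34c-3p (-1.64) were called lower while the median of all miRNAs was -1.27. Between the WT kidneys of the models, 3 became 1 with library totals. Leaving out single libraries gave 0 to 1, against 0, for the Pkd2 KO effect averaged over the ages, its change from P1 to P7 and the difference between models at P7.

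Of the log2 changes named in the report, library totals turned miR-34a-5p, miR-34b-5p and miR-34c-5p from P1 to P7 in Pkd2 WT (-0.17, -0.13 and -0.36), miR-34b-5p from P3 to P7 in Pkd1 WT (-0.29) and miR-34c-5p between the WT kidneys (0.079). The shift of the median of all miRNAs by the scaling had the same sign as each of these turns. Leaving out single libraries turned miR-34a-5p in Pkd1 KO at P7 (-0.44 to 0.20). RLE factors changed no call and no direction among the named changes.

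The replicate numbers did not pair the libraries. The correlation of deviations of same-numbered WT and KO libraries was -0.489 to 0.456 over 18 pairs, with 7 above 0.1, and 5 WT libraries correlated best with their own number. With a replicate block the change of miR-34a-5p in Pkd2 KO at P7 was 1.14 (adjusted p = 0.0316), and the number of members called was unchanged in each of the 20 comparisons.

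Depth limits miR-34a-3p most, at 1 to 31 reads, and miR-449a-3p, miR-449b and miR-449c-3p allow no comparison. With 3 libraries a group, the SE of a member's change at 1 age was 0.21 to 0.69.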
